A study of Mus musculus with 34 samples.

Results

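Leptin treatment and a high-fat diet were given to female C57BL/6J mice in separate experiments, and the transcriptomes of their cumulus cells (CCs) were set against each other here as a difference of effects. The leptin effect was 16 L minus 16 C, the diet effect was 16-week HFD minus 16-week CD, and the difference was the first minus the second, for every gene. A gene or pathway moved in opposite directions when its effects had opposite signs, and agreed when they had the same sign. Of the 34 libraries of the series, 21 entered: 3 of 16 C, 5 of 16 L, 6 of 16-week CD and 7 of 16-week HFD. The 4-week diet groups and the mice that gained little weight on the high-fat diet were left out.

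All mice were 8 weeks old at the start. Mice of 16 L received recombinant mouse leptin by intraperitoneal injection, 100 μg per day for 16 days, and those of 16 C received saline over the same time. The 16-week CD mice ate chow with 11% of its energy from fat, and the 16-week HFD mice ate a diet with 58%, both for 16 weeks. After superovulation the CCs of 1 cumulus-oocyte complex were lysed and amplified by Smart-seq2, a full-length protocol for very small inputs. The arms had controls of their own and shared no library. The controls differed from each other in age, injections and experiment, so what sets 16 C apart from 16-week CD cannot be told apart by these labels.

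CCs are the somatic cells around the oocyte, and they feed it with pyruvate, amino acids and cholesterol, in part through gap junctions. Leptin, a hormone of fat tissue that circulates at higher levels in obesity, binds LEPR and signals through JAK2, STAT3, STAT5 and PI3K, with SOCS3 as a feedback inhibitor. The comparison asks which genes leptin and the diet moved in the same direction, and which in opposite directions.

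Library composition differed within the groups as well as between them. Total counts ran from 1104611 to 13207018. The 50 most abundant genes took 30.7 to 34.6% of the counts in 16 C and 13.4 to 19.8% in 16 L. They took 25 to 31.7% in 16-week HFD and 24.3 to 30.4% in 16-week CD, except for CD libraries 1 and 2 with 14.9 and 15.5%. On the first principal component, which held 38.7% of the variance, CD libraries 1 and 2 (76.5 and 69.6) lay among the 16 L libraries (5.85 to 114) and apart from every other library of CD, HFD and 16 C. Which samples lean to the 16 L composition therefore touches both arms, and the counts of genes and the gene lists below are also given without CD libraries 1 and 2, an alternative chosen after the data were seen.

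Library 18 of 16 L stood apart in another way. Its oviduct epithelium markers summed to 33079 RPM (reads scaled to the library total), against 175 to 2594 in the other 16 L libraries, 133 to 163 in 16 C, 146 to 401 in CD and 163 to 497 in HFD, and all 19 of these markers were detected in it. Theca and stroma markers summed to 1759 RPM in that library. Over 16 L the stromal gene Dcn held the most counts of them, 5741, and the theca genes Cyp17a1 and Insl3 held 26 and 3. Red cell markers were high in 16 L libraries 18 and 21 (9826 and 2551 RPM) and reached at most 134 RPM in any other library. Oocyte markers were low in all groups but higher in every 16 L library (18.1 to 63.5 RPM) than in 16 C (1.12 to 2.50), CD (1.70 to 16.2) and HFD (2.15 to 6.59). Of these 20 markers, 16 were detected in library 18, 3 to 8 in the other 16 L libraries and 3 to 7 in CD. Kit held the most counts of them in 16 L and in CD, 394 and 173. Granulosa and cumulus markers were detected in every library, 15 to 17 of 17, and their sum was lowest in library 18 (5449 RPM, against up to 30034 RPM elsewhere). Macrophage and neutrophil markers summed to 141 to 2383 RPM in 16 L, 130 to 612 in 16 C, 129 to 546 in CD and 139 to 756 in HFD. Oviduct epithelium markers were also above every 16 C, CD and HFD library in 16 L libraries 20, 21 and 23 (1930, 2594 and 915 RPM), but not in library 19 (175 RPM). Macrophage and neutrophil markers summed to 2064, 636 and 2383 RPM in libraries 20, 21 and 23 and to 141 RPM in library 19. Results without library 18 are therefore not free of these markers. The part of these other cells in each result was not tested beyond leaving library 18 out. In such bulk samples fewer cells of a type and less RNA per cell cannot be told apart.

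**Figure D1:**
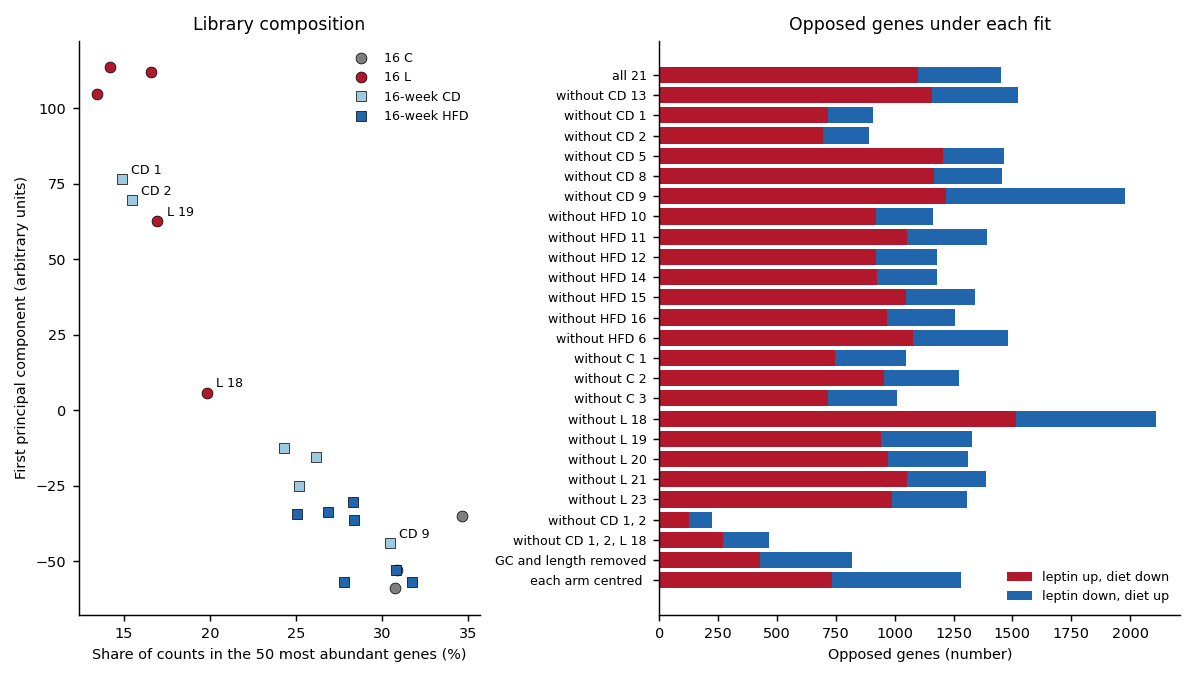
Left, first principal component score (arbitrary units) against the share of counts in the 50 most abundant genes (percent) for the 21 libraries, coloured by group. Right, the number of opposed genes, which moved in opposite directions, in each fit. CD libraries 1 and 2 sit with 16 L, and the number fell from 1450 with all libraries to 223 without them, while it rose to 2108 without 16 L library 18.

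Leptin and diet moved CC genes in opposite directions far more often than in the same one. Of 12735 genes tested, the difference of effects was higher for 2616 (20.5%) and lower for 1525 (12%) at adjusted p under 0.05 in edgeR's quasi-likelihood test. A gene was called opposed when its difference passed and both arms had opposite signs with an unadjusted p under 0.05 each. This held for 1098 genes with leptin up (8.62%) and 352 with leptin down (2.76%). Agreeing genes, defined in the same way on the sum of the effects, numbered 0 (0%), and the sum itself called 0 genes (0%). The smallest adjusted p of the sum was 0.0521, with 2089 genes at an unadjusted p under 0.05 (1241 higher, 848 lower). DESeq2 called 388 genes for the sum and limma-voom 5180. Among the 1482 genes with an unadjusted p under 0.05 in both arms, 1450 had opposite signs and 32 had the same sign.

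The arms were unequal in strength. Leptin alone raised 1746 genes (13.7%) and lowered 1256 (9.86%). Diet alone raised 1 gene (0.00785%), Zc3h12c, and lowered 1 (0.00785%), Cxcr7, a scavenging chemokine receptor. Both of these were opposed, with leptin effects of -2.80 and 2.72 on the log2 scale. Among the 3002 genes called for leptin, 2554 had a fitted diet effect of the opposite sign, beside 9094 of all 12735 genes tested. Over all genes the median log2 effect was 0.31 for leptin, -0.05 for diet and 0.41 for the difference, so gene lists are described below relative to these medians.

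Without library 18 the opposition was wider. Of 12355 genes tested, the difference was higher for 3303 (26.7%) and lower for 2433 (19.7%). Opposed genes rose in number to 1517 with leptin up (12.3%) and 591 with leptin down (4.78%), and 1057 and 346 of them were opposed with all 21 libraries. Leptin raised 2514 genes (20.3%) and lowered 2282 (18.5%), while diet raised 137 (1.11%) and lowered 757 (6.13%). Now 600 genes passed an adjusted p of 0.05 in both arms with opposite signs, and 5 did so with the same sign. Agreeing genes numbered 29 up (0.235%) and 10 down (0.0809%). Leaving out 1 leptin library thus changed the number of diet calls as well, in a fit where all groups share 1 estimate of the spread.

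Fewer genes were opposed without CD libraries 1 and 2. These were picked because they lay among the 16 L libraries, so leaving them out tends to shrink a diet effect that runs against leptin. It also leaves fewer CD libraries, and no other pair was left out for comparison. Without CD libraries 1 and 2, the difference was higher for 1325 of 12497 genes (10.6%) and lower for 1037 (8.3%). Opposed were 223 genes (1.78%), of which 200 were among the 1450. Without these and library 18 together, 467 of 12025 genes were opposed (3.88%), and 351 of them were among the 1450. The Pearson correlation of the leptin and diet log2 effects over genes, which are not independent replicates, was -0.39 with all libraries, -0.56 without library 18, -0.098 without CD libraries 1 and 2, and -0.22 without all 3.

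**Figure D2:**
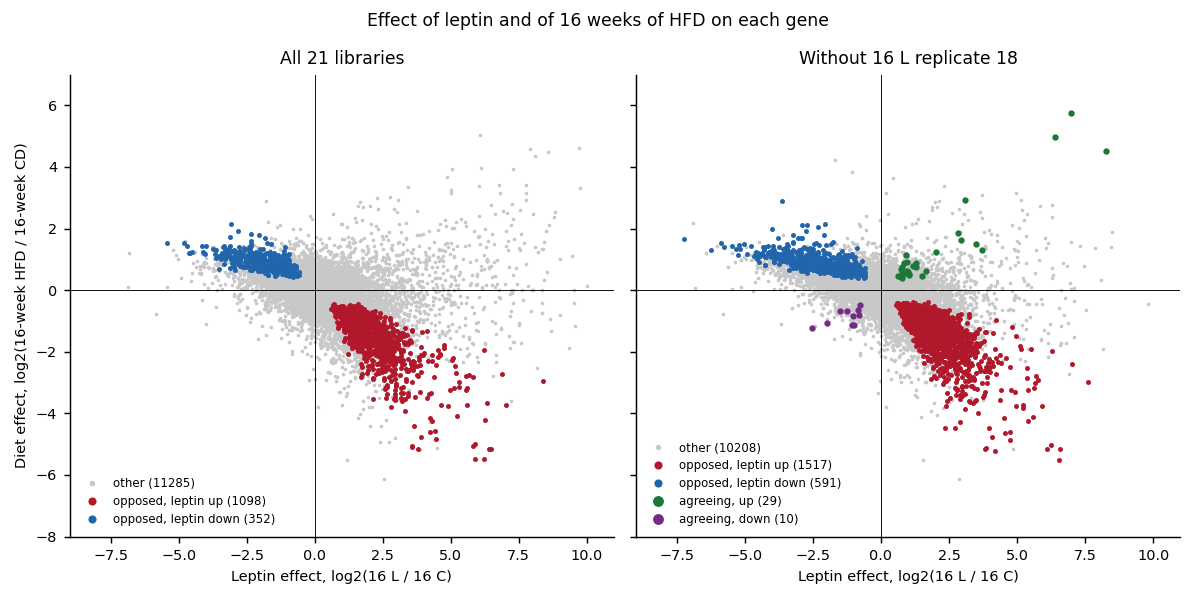
Log2 effect of leptin (16 L minus 16 C, horizontal) against log2 effect of diet (HFD minus CD, vertical) for each gene tested, with all 21 libraries (left) and without 16 L library 18 (right). Opposed genes (1450 left, 2108 right) fill the upper left and lower right quadrants, and agreeing genes (0 left, 39 right) are few.

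Base composition moved with the opposition too. The opposed genes with leptin up had a median transcript GC content of 56.1%, those with leptin down 44.7%, and all genes 49.8%. Genes were split by GC content into 10 bins of like size. In the bin with the lowest GC content (median 39.8%) the median log2 effect was -0.22 for leptin and 0.31 for diet, and 0.556% of genes were opposed with leptin up against 7.15% with leptin down. In the bin with the highest GC content (median 59.6%) the medians were 1.35 for leptin and -0.75 for diet, and these shares were 27.0% and 0.239%. With a trend on GC content and length removed from each library, also chosen after the data were seen, the difference was higher for 1553 genes (12.2%) and lower for 1581 (12.4%), and 817 were opposed (6.42%). Without CD libraries 1 and 2 the median diet effect in the highest bin was -0.18. The part of GC content in the opposition was not tested further.

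**Figure D3:**
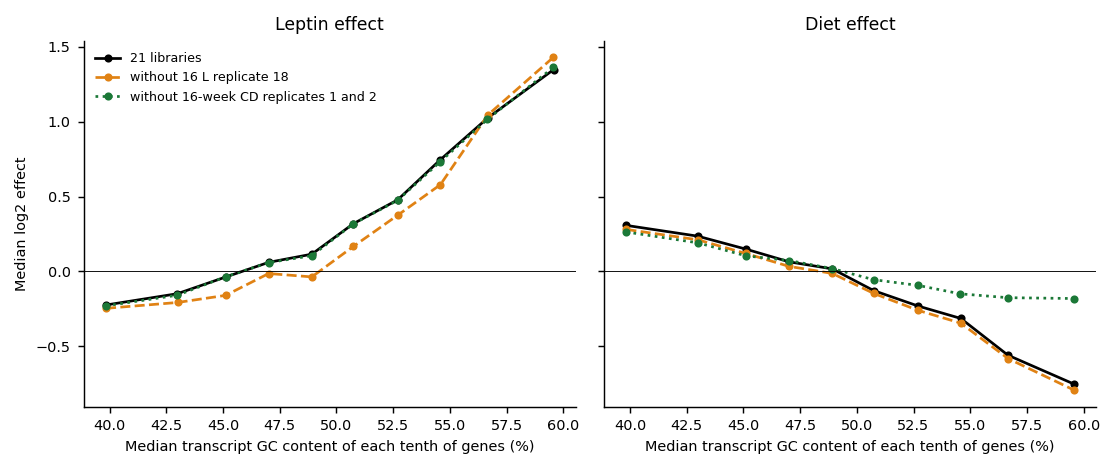
Median log2 effect of leptin and of diet in 10 bins of genes ordered by transcript GC content (percent), with all 21 libraries, without 16 L library 18 and without CD libraries 1 and 2. With all libraries the leptin medians climbed from -0.22 to 1.35 and the diet medians dropped from 0.31 to -0.75 as GC content rose.

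The controls of the experiments lay at opposite ends for these genes. Among the 1098 opposed genes with leptin up, the mean level of 16 C was nearer to HFD than to CD for 996 (90.7%), and that of 16 L nearer to CD than to HFD for 1078 (98.2%). For the 352 with leptin down the counts were 328 (93.2%) and 340 (96.6%). Over all genes the shares were 69.5% and 65.0%. The median of 16 C minus CD on the log2(CPM + 1) scale, where CPM are counts scaled to the library total with TMM, was -0.94 for the genes with leptin up and 1.28 for those with leptin down. These levels chose the genes and are a description.

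Of the 1450 opposed genes, 124 were opposed in every one of 5 further fits: without library 18, without CD libraries 1 and 2, without all 3, with the GC and length trend removed, and with each arm centred on its median. In 52 of them leptin was up and in 72 it was down. Among those lower with leptin and higher with the diet were the RNase gene Zc3h12c (regnase-3), the mitochondrial phosphatase gene Ppm1k, the scaffold gene Strn and the sorting nexin gene Snx18. Among those higher with leptin and lower with the diet were the actin-regulator gene Marcksl1, the adaptor gene Maged1, the IGF-binding protein gene Igfbp4 and the orphan nuclear receptor gene Nr4a1. For most of these genes the diet arm met an unadjusted p only.

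Zc3h12c (chr9:52111985-52168111, GRCm38) encodes an RNase that cuts mRNAs of inflammatory genes, and it had the smallest adjusted p of the difference. It was at 148, 91.6 and 135 CPM in the 16 C libraries and at 15.8, 31.6, 15.6, 14.7 and 10.5 CPM in 16 L libraries 18, 19, 20, 21 and 23. In CD it ran from 22 to 52.8 CPM (median 24.8), and in HFD from 63.7 to 168 CPM (median 129). Neither arm overlapped: every 16 L library was below every 16 C library, and every HFD library above every CD library. The log2 effect was -2.80 ± 0.39 (SE) for leptin (adjusted p = 0.00031) and 1.93 ± 0.31 for diet (adjusted p = 0.031), and the difference was -4.73 ± 0.50 (adjusted p = 2.4e-05). Without library 18 the difference was -4.66.

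Ppm1k, which encodes the phosphatase that switches on breakdown of branched-chain amino acids, had the same pattern. The 16 C libraries had 239, 323 and 198 CPM, and the 16 L libraries 51.8, 39.2, 27.2, 42.3 and 34.3 CPM, in the order of library number. CD ran from 51.0 to 129 CPM (median 82.6) and HFD from 124 to 271 CPM (median 171), so that leptin separated its groups and diet nearly did, with 1 HFD library below the highest CD library. The difference was -3.78 ± 0.43 (adjusted p = 4.8e-05), from a leptin effect of -2.70 and a diet effect of 1.08 (unadjusted p = 0.00047 in edgeR).

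Strn, which encodes a scaffold of a phosphatase complex, was high in 16 C and low in 16 L. It was at 784, 801 and 652 CPM in 16 C and at 76.4, 57.8, 24.8, 31.4 and 39.2 CPM in 16 L. In the diet arm it ran from 58.7 to 530 CPM (median 103) in CD and from 275 to 758 CPM (median 489) in HFD. The leptin groups were apart and the diet groups overlapped, with CD libraries 1 and 2 the lowest of their group (58.7 and 62.5 CPM). The difference was -5.44 ± 0.72 (adjusted p = 0.00018).

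Also opposed with leptin down in every fit were Snx18, whose product acts in endocytosis, and H2-T24, a nonclassical MHC class I gene. Snx18 was at 730, 854 and 934 CPM in 16 C and at 86.0, 206, 99.96, 82.1 and 102 CPM in 16 L, without overlap. CD ran from 178 to 307 CPM and HFD from 276 to 769 CPM, and 5 of 7 HFD libraries were above every CD library. Its effects were -2.86 for leptin and 0.97 for diet, and those of H2-T24 were -4.07 and 1.21. The difference passed in both (adjusted p = 0.00011 for Snx18 and 7.2e-05 for H2-T24).

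Marcksl1 (chr4:129513581-129515985) led the genes that were higher with leptin and lower with the diet. It was at 10.3, 26.7 and 14.7 CPM in 16 C and at 136, 78.3, 146, 141 and 119 CPM in 16 L. CD ran from 14.4 to 39.7 CPM (median 20.3) and HFD from 6.82 to 17.1 CPM (median 9.71). All 16 L libraries were above all 16 C libraries, and 5 of 7 HFD libraries were below every CD library. Its effects were 2.81 ± 0.42 for leptin (adjusted p = 0.00043) and -1.16 ± 0.29 for diet (unadjusted p = 0.00052), and the difference was 3.97 ± 0.51 (adjusted p = 0.00012).

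Maged1, an adaptor of neurotrophin and apoptosis signals, was at 64.8, 90.9 and 75.6 CPM in 16 C and at 228, 254, 277, 292 and 224 CPM in 16 L. In CD it ran from 123 to 318 CPM (median 250) and in HFD from 93.8 to 162 CPM (median 114). Here the 16 L libraries lay within the CD range and the 16 C libraries below it. The difference was 2.70 ± 0.39 (adjusted p = 0.00027).

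Igfbp4, which holds IGF away from its receptor, was at 6.89, 23.4 and 7.70 CPM in 16 C and at 58.7, 23.6, 113, 132 and 154 CPM in 16 L. Its CD libraries ran from 16.9 to 67.6 CPM (median 24.9), and all HFD libraries were lower, from 8.37 to 12.9 CPM (median 10.4). The leptin groups were apart by a narrow gap, since 16 L library 19 matched 16 C library 2. The difference was 4.61 ± 0.72 (adjusted p = 0.00033).

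Nr4a1, an immediate early gene that gonadotropins induce in the ovary, was at 5.51, 6.51 and 9.45 CPM in 16 C. In 16 L it was at 6.54 CPM in library 18 and at 32.1, 30.8, 51.9 and 45.7 CPM in the others. CD ran from 16.6 to 30.2 CPM (median 23.7) and HFD from 4.07 to 11.4 CPM (median 8.32), without overlap. The leptin groups overlapped through library 18 alone. The difference was 3.77 ± 0.60 with it (adjusted p = 0.00040) and 4.09 without it (adjusted p = 5.4e-06).

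**Figure D4:**
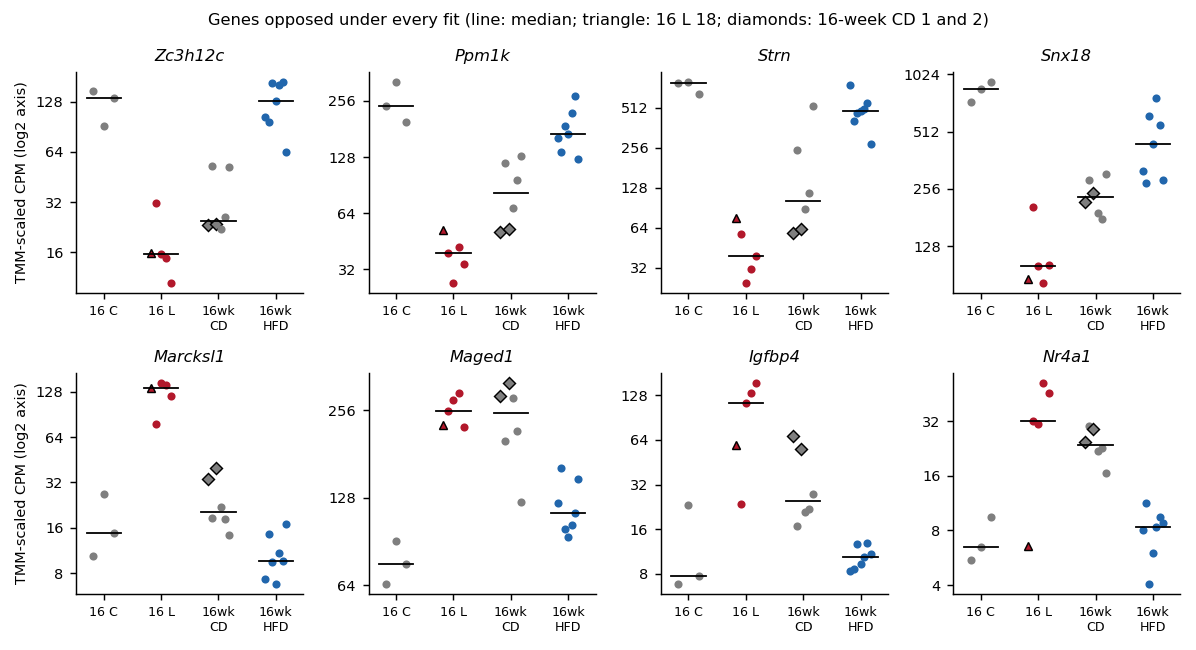
CPM (TMM, log2 axis) of 8 opposed genes in each of the 21 libraries by group. Triangles mark 16 L library 18 and diamonds CD libraries 1 and 2, and lines give group medians. In the upper 4 genes 16 L lies below 16 C and HFD is above CD, and in the lower 4 the order is turned in both arms, with Nr4a1 of library 18 at the level of 16 C.

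Other genes with a small adjusted p lost their opposition in 1 fit or more. Fdps, a cholesterol synthesis gene, fell from 920 to 1119 CPM in 16 C to 54.0 to 125 CPM in 16 L, a leptin effect of -3.51 ± 0.42 (adjusted p = 0.00013). Its diet effect was 0.67 (unadjusted p = 0.046), and CD libraries 1 and 2, at 324 and 327 CPM, were the lowest of all CD and HFD libraries. The tubulin gene Tuba1b and the ATP synthase subunit gene Atp5d had differences of 3.14 and 3.18 (adjusted p = 0.00032 and 0.00033), with leptin up. Both had their highest CD values in libraries 1 and 2, at 40.1 and 43.2 CPM for Tuba1b and at 99.2 and 108 CPM for Atp5d.

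Among the largest differences, some changed in size or in call with the libraries that entered. Among genes with a mean of 10 RPM or more, Med25, a Mediator subunit gene, had the largest positive one, 8.68 ± 1.81 (adjusted p = 0.0021), with 0 to 2.13 CPM in 16 C and 4.95 to 31.9 CPM in 16 L. Its CD level was 56.1 and 44.3 CPM in libraries 1 and 2 and 0 to 2.66 CPM in the other 4, and HFD was at 0 to 1.00 CPM. Its difference was 4.92 (adjusted p = 0.0062) and its diet effect -1.30 (unadjusted p = 0.11) without CD libraries 1 and 2. The largest negative difference at that level, -6.51 ± 1.17 (adjusted p = 0.00086), was that of Lgr4, a receptor for R-spondins. Lgr4 was at 8222, 11458 and 8906 CPM in 16 C and at 796, 180, 75.6, 107 and 133 CPM in 16 L, while CD ran from 233 to 5303 CPM and its diet effect was 1.31 (unadjusted p = 0.072). Its difference passed in all 33 alternatives. Cbs, a homocysteine enzyme gene, had a difference of 6.88 (adjusted p = 0.024) that did not pass in 8 of 32 alternatives, among them the fits without CD library 2, without any 1 of the 16 C libraries, and without CD libraries 1 and 2 together. Its level was 563 CPM in 16 L library 18 and 0.639 to 41.7 CPM in the other 16 L libraries, and the difference was 4.44 without library 18 (adjusted p = 0.021).

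Genes of mitochondrial respiration, mitochondrial translation and protein degradation lay below all genes under leptin and above them under the diet. For the 76 nuclear genes of oxidative phosphorylation the median leptin effect was 0.85 below that of all genes (-0.85) and the median diet effect was 0.54 above it. The difference was lower for 11 of the 76 and higher for 4, beside 12% and 20.5% of all genes. For the 76 mitochondrial ribosomal protein genes the relative medians were -0.93 for leptin and 0.34 for diet (22 lower, 2 higher), and for 42 proteasome genes -1.14 and 0.25 (14 lower, 2 higher). Few single members were opposed, and not all in the direction of their list. Of the 4 in oxidative phosphorylation, 2 had leptin down and 2 leptin up, and the 1 in the mitochondrial ribosome, Mrpl13, had leptin down. Both of those in the proteasome, Psmd3 and Psme3, had leptin up and diet down (2.31 and -1.10, 0.79 and -0.68). Relative medians of these lists kept their sign in all 33 alternatives, except for the diet median of the proteasome in 2 of them.

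Library 18 went against the other leptin libraries in these lists. A list score, the mean log2(CPM + 1) over its members relative to the experiment's controls and to all genes, was 0.46 for oxidative phosphorylation in library 18, against a 16 L median of -1.0 and a lowest value of -1.35. For the mitochondrial ribosome it was 0.0069 in library 18 against a median of -1.14, and for the proteasome -0.17 against -1.15. Without library 18 the difference was lower for 40, 41 and 25 members of these lists and higher for 4, 3 and 2. The shares of all genes in that fit were 19.7% lower and 26.7% higher. The relative leptin medians were then -1.26, -1.18 and -1.34. In the diet arm the HFD scores of oxidative phosphorylation ran from 0.30 to 1.14, and CD ran from -1.13 to 0.85. Without CD libraries 1 and 2 the relative diet medians were 0.13, 0.00 and -0.08, so the diet side of the opposition was small or gone there.

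Ndufv2, a flavoprotein subunit gene of complex I, shows the pattern in 1 gene. It was at 730, 318 and 699 CPM in 16 C, and at 275 CPM in library 18 and 123, 83.2, 101 and 116 CPM in the other 16 L libraries. CD ran from 70.4 to 340 CPM (median 287), with libraries 1 and 2 lowest at 70.4 and 88.6 CPM, and HFD from 275 to 747 CPM (median 362). Its difference was -2.88 ± 0.62 (adjusted p = 0.0025). The 20S proteasome gene Psma2 and the ribosomal gene Mrpl1 had differences of -2.83 ± 0.63 and -2.87 ± 0.54 (adjusted p = 0.0028 and 0.0012). Their diet effects were 0.63 and 0.59, with unadjusted p of 0.12 and 0.091. Atp5d and Atp5a1 of the ATP synthase went the other way within their list, with leptin effects of 2.27 and 1.13 and diet effects of -0.91 and -0.63, both opposed.

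Cell cycle and DNA replication genes had relative medians of -0.83 for leptin and 0.17 for diet over 39 members. The difference was lower for 7 and higher for 3, beside 12% and 20.5% of all genes. Opposed were 1 member with leptin down and 2 with leptin up, no more than the 2.76% and 8.62% of all genes. The thymidylate synthase gene Tyms was opposed with leptin down (-1.48 and 0.72). The cyclin gene Ccnd3 and the helicase gene Mcm7 were opposed with leptin up (2.35 and -1.28, 1.29 and -0.84). The relative diet median was -0.01, and 0 of the 39 were opposed, without CD libraries 1 and 2. In that fit 1.78% of all genes were opposed, a share at which lists of this size hold few opposed members or none, here and below.

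Genes of the basement membrane and matrix moved the other way. Their relative median was 1.11 for leptin and -0.66 for diet over 25 members, and the difference was higher for 11 and lower for 3. Opposed with leptin up were 7 members, fibronectin (Fn1), the laminin chains Lamb2 and Lama5, the collagen chains Col4a2, Col6a1 and Col6a2, and perlecan (Hspg2). Lamb2 no longer passed with the GC and length trend removed (adjusted p of the difference = 0.087). Sparc, a matrix-binding glycoprotein gene, was opposed with leptin down (-1.03 and 0.76), and Spp1, the osteopontin gene, had a difference of -4.87. Fn1 was at 32.4, 103 and 37.5 CPM in 16 C and at 108, 99.5, 467, 244 and 529 CPM in 16 L. Its CD libraries ran from 66.1 to 312 CPM (median 91.4), with 297 and 312 CPM in libraries 1 and 2, and HFD from 15.5 to 67.0 CPM (median 41.6). The difference for Fn1 was 4.10 ± 0.84 (adjusted p = 0.0018). Theca and stroma markers, which share collagens with this list, were at 22.1 to 1759 RPM in 16 L and at 1.7 to 4.5 RPM in 16 C, and at 2.2 to 66.5 RPM in CD and 2.6 to 32.5 RPM in HFD. Without library 18 the relative medians were 1.04 and -0.93. They were 1.14 and -0.06 without CD libraries 1 and 2, with 1 member opposed, beside 1.78% of all genes in that fit.

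**Figure D5:**
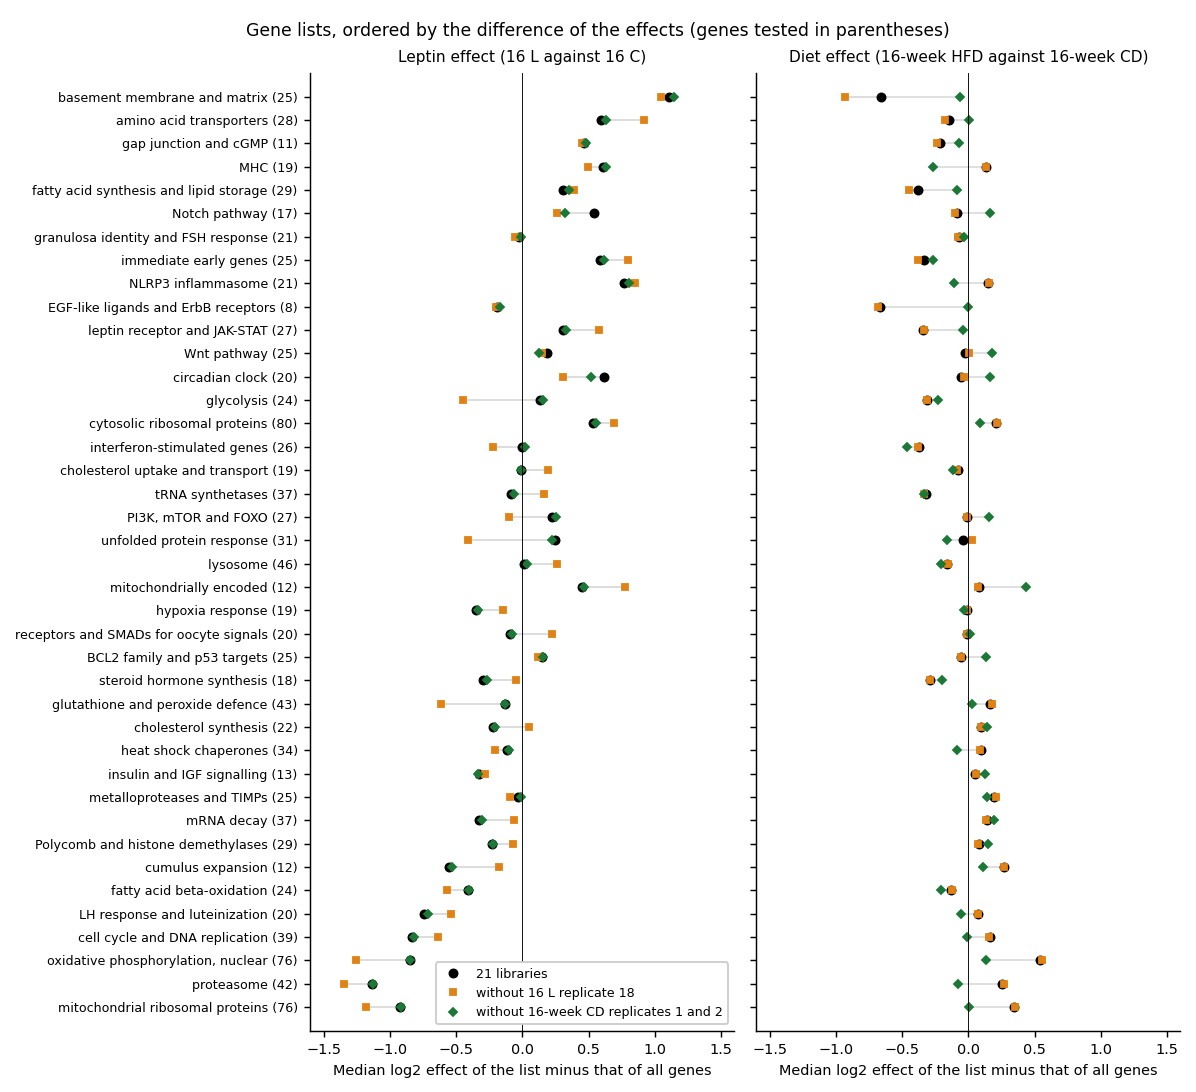
Median log2 effect of each of 40 gene lists relative to all genes tested, for leptin and for diet, with all 21 libraries, without 16 L library 18 and without CD libraries 1 and 2. Oxidative phosphorylation, the mitochondrial ribosome and the proteasome lie left for leptin and right for diet, the basement membrane and matrix list the reverse, and the diet medians of these lists draw towards 0 without CD libraries 1 and 2.

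Lipid and sugar genes were split within their pathways. In fatty acid synthesis and lipid storage the difference was higher for 10 of 29 members and lower for 2, with relative medians of 0.31 for leptin and -0.38 for diet. The 4 opposed members were the lipase genes Pnpla2 (2.83 for leptin, -2.04 for diet) and Lipe (2.55 and -1.81), the fatty acid synthase gene Fasn (2.08 and -2.06) and the lipogenic regulator gene Srebf1 (1.29 and -1.58). The desaturase gene Scd1 had a difference of -1.6 (adjusted p = 0.011). Leaving out CD libraries 1 and 2, 0 of the 29 were opposed, beside 1.78% of all genes, and the relative medians were 0.35 and -0.08. In cholesterol synthesis the difference was lower for 6 of 22 members and higher for 2. Fdps was lower (-4.18), and Mvd and the regulator Srebf2 were opposed with leptin up (1.49 and -0.74, 1.58 and -1.15). The difference was lower for 5 and higher for 1, and 0 were opposed, without CD libraries 1 and 2. The shares of all genes in that fit were 8.3%, 10.6% and 1.78%.

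In glycolysis, by which CCs make pyruvate for the oocyte, the difference was higher for 9 of 24 genes and lower for 1. Hexokinase genes parted, Hk1 being opposed with leptin up (2.58 and -1.81) and Hk2 having a difference of -3.89 (adjusted p = 0.00070). Pkm, Pfkm and Gpi1 were opposed with leptin up. The diet effect of Hk1 was 0.10 (unadjusted p = 0.78), of the other sign, without CD libraries 1 and 2. In that fit 0 of the 24 were opposed, beside 1.78% of all genes. The difference of Hk2 passed in all 33 alternatives. The relative leptin median of the list was 0.13 with all libraries and -0.45 without library 18, and limma-voom gave -0.60 with all libraries, so its direction was not stable. The relative diet median was -0.31 with and without library 18 and -0.23 without CD libraries 1 and 2. Amino acid transporters had relative medians of 0.59 and -0.15 over 28 members (11 higher, 3 lower). The glutamine carrier gene Slc38a5 and the glycine carrier gene Slc6a9 were opposed with leptin up (1.34 and -0.76, 2.53 and -2.86), as was Slc38a10 (1.77 and -1.64), and Slc36a4 with leptin down (-2.21 and 0.71). Slc38a10 no longer passed with the GC and length trend removed (adjusted p of the difference = 0.077). Relative medians of the transporters were 0.63 and 0.01, and 1 was opposed, beside 1.78% of all genes, without CD libraries 1 and 2. The list score of library 18 was -0.63 against a 16 L median of 0.92.

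Of the tRNA synthetases, 6 of 37 were opposed with leptin up (Vars, Aars, Wars, Farsb, Cars and Vars2) and 1, Eprs, with leptin down. Of the lysosomal genes, 6 of 46 were opposed with leptin up, among them the hydrolase genes Naglu (1.93 and -1.83) and Gaa (1.37 and -1.89), and 0 with leptin down. The shares of opposed genes over all genes, 8.62% and 2.76%, are the background for these counts and for those of the other lists. For the difference the shares over all genes are 20.5% higher and 12% lower. Without library 18 the lysosomal count was 11 and the synthetase count 7, and without CD libraries 1 and 2 they were 1 and 0. Of all genes, 12.3% were opposed with leptin up without library 18. The share opposed in either direction was 1.78% without CD libraries 1 and 2.

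Of the immediate early genes, 5 of 25 were opposed with leptin up, Nr4a1, Ier3, Ier5, Zfp36 and Egr2. Their relative medians were 0.58 for leptin and -0.34 for diet, and 0.80 and -0.38 without library 18, whose own score was -0.78. Its members did not share a direction, since the difference was lower for 4 of them, among these Myc (-2.71, adjusted p = 0.0064) and Klf10 (-2.71, adjusted p = 0.0023). With the GC and length trend removed the relative medians were 0.03 and 0.17, so the opposition of this list was gone there. They were 0.61 and -0.27 without CD libraries 1 and 2, and 1 member was opposed, beside 1.78% of all genes. Of the clock genes, 4 of 20 were opposed with leptin up, Per1 (2.70 and -1.86), Cry2 (1.88 and -1.46), Tef (1.34 and -0.91) and the kinase gene Csnk1d (1.44 and -1.01). Their relative medians were 0.62 for leptin and -0.05 for diet. Once CD libraries 1 and 2 were left out, the diet effect was -0.79 for Per1 (unadjusted p = 0.19) and -0.43 for Csnk1d (unadjusted p = 0.099). In that fit 0 of 19 clock genes were opposed, beside 1.78% of all genes, and the relative diet median was 0.17, of the other sign.

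PI3K, mTOR and FOXO signalling held opposed genes in both directions. The kinase and complex genes Akt1 (1.3 and -1.32), Akt2 (1.71 and -0.92), Pik3cd (2.25 and -1.25), Pik3r2 (1.91 and -2.18) and Rptor (1.48 and -1.13), and the mTORC1 inhibitor gene Tsc2 (1.80 and -1.20), were opposed with leptin up. Among those opposed with leptin down were the catalytic subunit gene Pik3ca (-0.88 and 0.69) and the S6 kinase gene Rps6kb1 (-0.80 and 0.50), so that catalytic subunits and kinases stood on both sides. Akt2 no longer passed with the GC and length trend removed (adjusted p of the difference = 0.058). The 27 genes held 6 and 3 opposed members, and their relative medians were 0.22 and -0.01. Without CD libraries 1 and 2, 1 of the 27 was opposed, beside 1.78% of all genes.

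Among the leptin receptor and JAK-STAT genes the difference was higher for 8 of 27 and lower for 4, beside 20.5% and 12% of all genes. Relative medians were 0.30 for leptin and -0.34 for diet. Stat6 (1.19 and -1.26) and the adaptor gene Sh2b1 (1.5 and -1.34) were opposed with leptin up, and the inhibitor gene Socs2 (-0.88 and 0.71) with leptin down. These 2 and 1 of 27 stand beside 8.62% and 2.76% of all genes, so the list was near the background. Without CD libraries 1 and 2 the difference was higher for 1 of the 27 and lower for 3, and 0 were opposed. The shares of all genes in that fit were 10.6%, 8.3% and 1.78%. The receptor gene Lepr had an effect of -0.86 ± 0.49 for leptin and -0.49 ± 0.37 for diet, and its difference of -0.37 ± 0.62 did not pass (adjusted p = 0.67). Socs3 had effects of 1.40 ± 1.03 and -1.62 ± 0.76, and its difference of 3.02 ± 1.3 did not pass either (adjusted p = 0.075).

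Stat3 depended on library 18. It was at 164, 141 and 155 CPM in 16 C, at 286 CPM in library 18 and at 111, 71.2, 73.7 and 108 CPM in the other 16 L libraries. CD ran from 102 to 234 CPM and HFD from 85.0 to 289 CPM. The difference was -0.65 ± 0.52 with library 18 (adjusted p = 0.35) and -1.12 without it (adjusted p = 0.036). Stat5a, the neighbouring STAT gene, was at 448, 664 and 610 CPM in 16 C and at 234, 127, 54.0, 130 and 93.3 CPM in 16 L, without overlap, while CD (61.1 to 727 CPM, median 129) and HFD (96.9 to 630 CPM, median 401) overlapped. Its difference was -2.91 ± 0.81 (adjusted p = 0.011) and passed in all 33 alternatives. Stat3 and Stat5a overlap at their ends on opposite strands, and reads there could count for either gene.

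Genes of the NLRP3 inflammasome, which matures IL-1β and IL-18, had relative medians of 0.77 for leptin and 0.15 for diet over 21 tested members. The difference was higher for 7 and lower for 4. Gasdermin D (Gsdmd, 0.87 and -1.20), the NF-κB subunit gene Rela (2.03 and -1.43) and the channel gene Panx1 (1.54 and -0.67) were opposed with leptin up. Panx1 was at 8.27, 9.54 and 5.95 CPM in 16 C and at 12.4, 22, 32.8, 21.8 and 27.8 CPM in 16 L, all above 16 C, and at 12.2 to 20.2 CPM in CD and 8.06 to 15.5 CPM in HFD. Without CD libraries 1 and 2 the relative diet median was -0.11, of the other sign. Casp1, Il18 and Pycard had differences of 2.21, 0.69 and 0.58 that did not pass (adjusted p = 0.29, 0.39 and 0.54).

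Il1b, the IL-1β gene, had few reads, and only 1 in 16 C. It was at 0, 0.112 and 0 CPM in 16 C, at 0 and 0.183 CPM in 16 L libraries 18 and 19, and at 7.20, 7.05 and 13.3 CPM in 16 L libraries 20, 21 and 23. CD ran from 0 to 2.67 CPM and HFD from 0 to 0.603 CPM. Its high level was thus in 3 of 5 leptin libraries, and a count of 0 allows up to 3 counts in a library, for counting error only. The fitted difference was 7.53 ± 2.30 (adjusted p = 0.017), a size that depends on how counts of 0 are treated, and it did not pass without 16 C library 3 (adjusted p = 0.057). Of 19 markers tested of macrophages and neutrophils, cells that make IL-1β, leptin raised 4 and lowered 0, beside 13.7% and 9.86% of all genes. The 4 were Laptm5, C1qa, C1qb and Csf1r, with effects from 1.70 (Csf1r) to 5.27 (Laptm5). The difference was higher for 4 of the 19 and lower for 1, Ccl7 (-4.71), beside 20.5% and 12% of all genes. The markers summed to 2064, 636 and 2383 RPM in 16 L libraries 20, 21 and 23, and to 485 and 141 RPM in libraries 18 and 19. They reached 612 RPM in 16 C and 756 RPM in HFD, where Il1b was at most 0.112 and 0.603 CPM. The part of these cells in the Il1b level was not tested. Nlrp3 itself was below the filter, with 6 reads in 16 L library 23, 1 each in 16 L library 18 and CD library 2, and 0 in the other 18 libraries. Its difference on the log2(RPM + 1) scale was 0.46 (two-sided exact permutation test within each experiment, p = 0.54), so none was detectable at this depth.

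Some lists had the same relative sign in both arms. Cytosolic ribosomal protein genes had relative medians of 0.53 for leptin and 0.21 for diet over 80 members. Leptin raised 31 of them and lowered 2, but diet called 0, and 0 were agreeing. Their difference was higher for 22 and lower for 2, beside 20.5% and 12% of all genes. It was higher for 14 and lower for 0 without CD libraries 1 and 2, and the relative medians were then 0.56 and 0.09. Rps10 was at 38.6, 57.9 and 53.6 CPM in 16 C and at 104, 132, 207, 277 and 257 CPM in 16 L, apart, and at 20.8 to 70.2 CPM in CD and 22.4 to 44.3 CPM in HFD, overlapping. Its difference was 2.36 ± 0.47 (adjusted p = 0.0016). The sign of the diet median was kept in 32 of 33 alternatives, and it was -0.14 with the GC and length trend removed.

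Steroid hormone synthesis and fatty acid beta-oxidation lay below the median of all genes in both arms. Most members had fitted effects of opposite signs, 13 of 18 steroid and 18 of 24 beta-oxidation genes, beside 9094 of all 12735 genes tested. The difference was higher for 4 and lower for 4 steroid genes, and higher for 4 and lower for 1 of beta-oxidation. Before the medians of all genes were subtracted, the steroid medians were 0.02 for leptin and -0.34 for diet. Relative medians were -0.29 and -0.29 over 18 steroid genes and -0.41 and -0.13 over 24 beta-oxidation genes, and both lists kept both signs in all 33 alternatives. Library 18 set much of the steroid value: its score was -2.14 against a 16 L median of -0.25, and without it the relative leptin median was -0.05. The relative medians without CD libraries 1 and 2 were -0.27 and -0.20 for the steroid genes and -0.40 and -0.21 for beta-oxidation. Within the steroid list the cholesterol carrier gene Stard3 (2.18 and -1.22) and the reductase gene Por (1.39 and -0.96) were opposed with leptin up. Hsd17b12 (-1.37 and 0.59) was opposed with leptin down, and 0 steroid genes were opposed without CD libraries 1 and 2, beside 1.78% of all genes. MHC genes were above all genes in both arms (0.61 and 0.13 over 19 members), but not for diet without CD libraries 1 and 2 (-0.27).

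Cumulus expansion genes had relative medians of -0.56 and 0.27 over 12 members. Leptin lowered 2 of them and raised 0, and the difference was lower for 1, Tnfaip6, the hyaluronan-linking protein gene (-3.36 ± 1.19, adjusted p = 0.035). Its difference did not pass in 12 of 33 alternatives (adjusted p up to 0.24). Tnfaip6 was at 1.75 CPM in library 18 and at 155 to 361 CPM in the other 16 L libraries, and at 991 to 1953 CPM in 16 C. Without library 18 the difference was higher for 2 of the 12 and lower for 3, and the relative leptin median was -0.18. With CD libraries 1 and 2 left out the difference was called for 0 of them, beside 10.6% higher and 8.3% lower of all genes. The relative medians were then -0.53 and 0.11.

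Single genes that agreed were called in the fits without the libraries that stood apart. There were 39 agreeing genes without library 18, 31 without CD libraries 1 and 2, and 108 without all 3, and 10 genes were in all of these sets. This selection was made after their values were seen. Up in both arms were Add3, Cd244, Ehd4, Fam111a, Fas, Ifi203, Ino80c and Ofd1, and down in both were Bmp6 and Gm12216. Add3, a membrane skeleton gene, ran from 20.0 to 30.4 CPM (median 25.6) in 16 C and from 33.3 to 63.6 CPM (median 56.2) in 16 L, without overlap, and from 25.2 to 41.2 CPM (median 33.1) in CD and 39.8 to 65.2 CPM (median 51.0) in HFD. The diet groups overlapped through CD libraries 1 and 2, at 41.0 and 41.2 CPM. Its effects were 1.02 and 0.56, and their difference of 0.47 ± 0.35 did not pass (adjusted p = 0.30).

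The death receptor gene Fas had effects of 3.06 and 2.91 at low levels. It ran from 0.689 to 1.05 CPM in 16 C and from 0.548 to 14 CPM in 16 L, and from 0 to 0.444 CPM in CD and 0 to 2.01 CPM in HFD, overlapping in both arms. Ehd4, an endocytic ATPase gene, ran from 7.30 to 11.2 CPM in 16 C and from 14.1 to 43.5 CPM in 16 L, and from 6.95 to 16.4 CPM in CD and 11.3 to 26.5 CPM in HFD. Its leptin groups were apart, and 1 CD library was above the lowest HFD library. Fam111a had diet groups apart, at 1.63 to 4.48 CPM in CD and 6.31 to 11.9 CPM in HFD, while 16 C (0.70 to 4.83 CPM) and 16 L (1.46 to 20.8 CPM) overlapped through 16 L library 19. Bmp6, a growth factor of the TGF-β family that granulosa cells and oocytes make, was lower in both arms (-2.38 and -1.04). It ran from 10.5 to 28.6 CPM in 16 C and from 0 to 6.49 CPM in 16 L, without overlap, and from 14.7 to 55.8 CPM in CD and 3.38 to 31.1 CPM in HFD. With all 21 libraries none of these 10 passed the test of the sum.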

How the data were processed

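CCs of 1 complex per library were sequenced after Smart-seq2 amplification. The authors deposited 1 table of raw counts per gene for 34 libraries, of which 21 were used (the other 13 entered 1 alternative only). Per the labels and the submitters' processing notes, reads were trimmed with Trim Galore 0.4.2 and aligned with HISAT2 2.0.5 to GRCm38. The counting settings are not given in the sources used here. Samples were grouped by the labels. The study's methods describe cells collected from each animal, so libraries were taken as separate mice, although the labels name no mouse. Over 49 pairs within groups, 0 were identical, and their counts differed beyond sampling noise (chi-square over genes divided by its degrees of freedom, 3.26 at the least).

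Counts were analysed in R 4.3.3 with edgeR 4.0.16: filterByExpr by group left 12735 of 25965 entries, TMM scaling, robust quasi-likelihood fit of the 4 groups together, and contrasts for leptin, diet, their difference and their sum, with Benjamini-Hochberg adjustment at 0.05. The script was tested on simulated data. Opposed and agreeing genes also needed an unadjusted p under 0.05 in each arm. Lists were described by counts and medians, without a test. Genes under the filter were compared by an exact permutation test over 96096 splits. DESeq2 1.42.0 and limma-voom (limma 3.58.1) were alternatives. Members, lists and the named-gene rule were chosen with earlier results of these data known. The rule took, for each class and direction, the 6 smallest adjusted p, the 5 largest differences in each direction at a mean of 10 RPM or more, the 2 members of each list with the smallest adjusted p and any opposed member, and leptin and inflammasome genes whatever their values. Genes outside it were chosen after their values were seen. GC content and length came from the reference transcripts (98.7% of genes matched). Results for some genes are not reported here.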

Additional observations from a re-analysis of the deposited data

Results flagged for a closer look

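Values of single libraries were compared with the other libraries of their group in the groups of 4 to 10 samples, by the gap of the farthest library to its nearest neighbour relative to the group's range. Of 198 groups of values tested, 27 (13.6%) had a library this far away, where chance gives about 1 in 20, and the values share libraries. Most of these were of 16 L library 18.

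Scores of library 18 (mean log2(CPM + 1) of the list relative to the controls and to all genes) lay above those of the other 16 L libraries for glutathione and peroxide defence (0.70), heat shock chaperones (0.73), oxidative phosphorylation (0.46), mitochondrial ribosomal proteins (0.0069) and the proteasome (-0.17). They lay below for LH response and luteinization (-2.35), steroid hormone synthesis (-2.14), cholesterol uptake and transport (-1.27), metalloproteases and TIMPs (-0.95), Polycomb and histone demethylases (-0.84), immediate early genes (-0.78), amino acid transporters (-0.63), the lysosome (-0.63), mRNA decay (-0.56), tRNA synthetases (-0.26), the BCL2 family and p53 targets (-0.23) and fatty acid synthesis and lipid storage (-0.084). Its TMM factor of 0.962 was the lowest of 16 L, and Stat3, at 286 CPM, was highest there. Library 19 of 16 L stood apart in the share of mitochondrial counts (4.71%), in the score of mitochondrially encoded genes (2.63), and in Snx18 (206 CPM) and Zc3h12c (31.6 CPM), both of which were highest there within 16 L and below every 16 C library. In the diet arm, CD library 9 had the lysosome score farthest from its group (-0.52), CD library 5 the metalloprotease score (-0.26) and the Lepr level (7.40 CPM), and HFD library 6 the Notch pathway score (-0.25).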

How the results depend on the processing

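No paired analysis was possible because the groups compared share no replicate numbers within an arm. Over the named genes, 3288 results kept their side of the threshold, 51 no longer passed and 23 passed newly. In 0 did the sign turn where either fit passed. Differences that passed in neither fit could change sign and are among the 3288, as for Lepr (-0.73 to 1.03 over the alternatives). Of 3960 list medians, 358 moved by more than the spread between libraries. Depth of 1104611 to 13207018 counts and 3 libraries of 16 C limit the comparison, and weakly expressed genes such as Nlrp3 cannot be judged.

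Leaving out 1 library at a time, the difference called 2604 to 5736 genes (4141 with all), leptin 983 to 4796 (3002), diet 0 to 1284 (2), the sum 0 to 924 (0), opposed genes numbered 891 to 2108 (1450) and agreeing genes 0 to 57 (0). Leptin called 984, 1874 and 983 genes without 16 C libraries 1, 2 and 3. Diet called 1284, 250, 234 and 98 without CD libraries 9, 13, 5 and 8, and 894 without 16 L library 18. The difference called 2604 without 16 C library 3. Opposed genes numbered 906 and 891 without CD libraries 1 and 2, and agreeing genes 57 and 39 without 16 L libraries 19 and 18, where the sum called 644 and 924.

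With limma-voom the difference called 7126 genes, leptin 8080, diet 47, the sum 5180, and 180 agreed. With DESeq2 diet called 769, the sum 388, and 22 agreed. With library totals alone the difference called 6912 (6294 higher, 618 lower), leptin 5609, diet 1722, the sum 213, and 3055 were opposed and 8 agreeing. With at least 10 counts in every library the values were 2563, 1985, 14 for the sum, 867 opposed and 1 agreeing. The sum called 4 with RLE and 1 without a filter. With all 34 libraries diet called 1258, the sum 420, and 29 agreed. With counts drawn down to the smallest library the sum called 9 and diet 1. Leptin called 1004 in a fit of its own groups, and 2 genes were opposed with both arms past an adjusted p of 0.05.

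Of the alternatives chosen after the data were seen, leaving out CD libraries 1 and 2 gave 2362 for the difference, 0 for diet, 629 for the sum, 223 opposed and 31 agreeing. Leaving out library 18 as well gave 5585 for leptin, 1 for diet, 3281 for the sum, 467 opposed and 108 agreeing. Removing the GC and length trend gave 59 for the sum, 817 opposed and 6 agreeing. Centring each arm gave 51 for the sum and 1 agreeing, and split the difference into 1823 higher and 2254 lower, against 2616 and 1525 without centring and 1553 and 1581 with the GC and length trend removed. The cause of these shifts was not tested.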
